A study of Homo sapiens with 4 samples.

Results

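The mitochondrial ribosomal protein genes of SK-N-MC cells were examined for FLI1, SSRP1 and H3K27ac at their promoters. The group holds the 78 protein-coding genes, of 20090 in GENCODE on hg19, whose symbol is MRPL or MRPS followed by a number. SK-N-MC is an established cell line of Ewing sarcoma, a tumour that carries a fusion of EWSR1 with an ETS-family transcription factor, here FLI1. The labels name no treatment, and 1 library was made for each of the 3 targets by ChIP-seq, beside an input library that the authors used as control in peak calling. SSRP1 is a subunit of the histone chaperone FACT, and H3K27ac is acetylation of lysine 27 on histone H3, found at active promoters and enhancers. The labels name FLI1 as the antibody's target, so fusion and unfused FLI1 cannot be told apart in these peaks. The deposited lists give the position of each peak and no height, and read depth was not analysed here. With 1 library per target there is no replicate check and no test. Each interval in brackets is an exact binomial (Clopper-Pearson) interval at 95%, which covers counting error only and treats genes as independent, although some share a promoter.

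Mitochondria keep their own ribosome, which translates the few proteins encoded by mitochondrial DNA, all of them parts of the oxidative phosphorylation machinery. Its rRNA comes from mitochondrial DNA, whereas every protein of its large subunit (most MRPL genes) and small subunit (most MRPS genes) is encoded in the nucleus and imported. Many of these proteins descend from bacterial ribosomal proteins, and others were added in the mitochondrial lineage. The nuclear genes are expressed in nearly all cells from promoters that often hold sites of the ETS factor GABP, of NRF1 and of YY1. ETS proteins, FLI1 among them, recognise a GGAA core.

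The ETS core searched for was CCGGAAG or CCGGAAA on either strand. Where such a core lay inside a FLI1 peak of a member's promoter, it lay in several genes within a few bases of a transcription start site (TSS). Of the members in which it was closest, 5 are shown because they place the core, the start and the peak side by side. Sequence is from GRCh37 (hg19), 5′ to 3′ on the strand of the gene, with the core in capitals. A core on the other strand reads CTTCCGG or TTTCCGG.
MRPL23 (chr11:1968560-1968589, plus strand): gcctcgcggaccCCGGAAGcgcgcgtggcc
MRPL16 (chr11:59578239-59578350, minus strand): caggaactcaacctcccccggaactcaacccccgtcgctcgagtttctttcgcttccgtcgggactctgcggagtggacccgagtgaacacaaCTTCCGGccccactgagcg
MRPL53 (chr2:74699790-74699819, minus strand): cctgcacgagttCTTCCGGggcggaggtca
MRPL27 (chr17:48450536-48450565, minus strand): aacttttcgagaCCGGAAGtgagtgatcga
MRPL12 (chr17:79670308-79670418, plus strand): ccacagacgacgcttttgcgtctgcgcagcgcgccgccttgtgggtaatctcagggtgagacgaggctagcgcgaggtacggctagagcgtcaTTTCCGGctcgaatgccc
The middle of the core lay 1 bp from the nearest annotated TSS in MRPL23, 3 bp in MRPL16 and MRPL53, 5 bp in MRPL27 and 7 bp in MRPL12. The FLI1 peaks over these cores were 275, 276, 377, 296 and 449 bp wide, in the same order of genes. The same letters at the same place also occurred without a FLI1 peak, as in the next pair of acetylated members.
MRPL52 (chr14:23299018-23299109, plus strand): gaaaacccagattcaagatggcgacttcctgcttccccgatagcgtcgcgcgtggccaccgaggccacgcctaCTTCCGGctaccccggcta
MRPS12 (chr19:39421486-39421597, plus strand): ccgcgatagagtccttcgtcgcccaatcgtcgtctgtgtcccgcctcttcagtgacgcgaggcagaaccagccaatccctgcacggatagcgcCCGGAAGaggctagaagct
In both genes the core lay 2 bp from a TSS. MRPS12, whose product is the homologue of the bacterial decoding-centre protein S12, carried a H3K27ac peak of 2337 bp and neither other mark. MRPL52, a large-subunit protein added in mitochondria, carried an SSRP1 peak of 282 bp beside its H3K27ac.

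All 78 members were acetylated: a H3K27ac peak met the 2.5 kb on either side of a TSS in 78 of 78 genes (100%, interval 95.4 to 100), against 57.9% of all protein-coding genes. The marks of the factors were less frequent. FLI1 lay at 29 members (37.2%, 26.5 to 48.9), against 29.0% of all genes and 42.1% of the 11624 genes acetylated at a TSS. SSRP1 also lay at 29 members (37.2%, 26.5 to 48.9), against 35.8% of all genes and 54.7% of acetylated genes. The share for SSRP1 was thus close to that of all genes and lower than that of acetylated genes, whose share lay above the members' interval. Among the 52 members with no divergent neighbour within 1 kb, the SSRP1 share was 42.3% (28.7 to 56.8), an interval that holds the 56.3% of acetylated genes without one. By number of TSSs, SSRP1 lay at 12 of 30 members with 1 (40%, 22.7 to 59.4, against 51.1%), 15 of 37 with 2 to 4 (40.5%, 24.8 to 57.9, against 55.0%) and 2 of 11 with 5 or more (18.2%, 2.28 to 51.8, against 58.6%). The members' share was the lower in each of these classes, and only the last interval missed that of acetylated genes. The share for FLI1 was within 5 percentage points of that of acetylated genes, inside the interval. Both factors lay at 17 members (21.8%, 13.2 to 32.6), against 17.3% of all genes with all 3 marks and 30.0% of acetylated genes.

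No member was without a mark, against 34.7% of all genes, and the members fell into 4 classes. The 17 genes with all 3 marks were MRPL3, MRPL12, MRPL14, MRPL16, MRPL20, MRPL21, MRPL23, MRPL24, MRPL28, MRPL34, MRPL38, MRPL40, MRPL49, MRPL53, MRPS26, MRPS27 and MRPS34. FLI1 with H3K27ac and no SSRP1 was found at 12 genes (15.4%, against 7.04% of all and 12.2% of acetylated genes), namely MRPL10, MRPL13, MRPL27, MRPL33, MRPL51, MRPL54, MRPL57, MRPS10, MRPS15, MRPS18A, MRPS22 and MRPS23. SSRP1 with H3K27ac and no FLI1 was found at another 12 (15.4%, against 14.3% and 24.7%), namely MRPL17, MRPL18, MRPL41, MRPL42, MRPL44, MRPL52, MRPS16, MRPS18B, MRPS24, MRPS28, MRPS35 and MRPS36. The other 37 members (47.4%) carried H3K27ac alone, against 19.2% of all and 33.1% of acetylated genes, and included MRPL1, MRPL2, MRPL4, MRPL11, MRPS2, MRPS5, MRPS7, MRPS9 and MRPS11, all homologues of bacterial ribosomal proteins. The same class held mitochondria-specific members too, among them MRPL37, MRPL39, MRPS25 and MRPS31. MRPL45, which ties the ribosome to the inner membrane, and MRPL58, a peptidyl-tRNA hydrolase that also works in ribosome rescue, were in it as well.

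**Figure D1:**
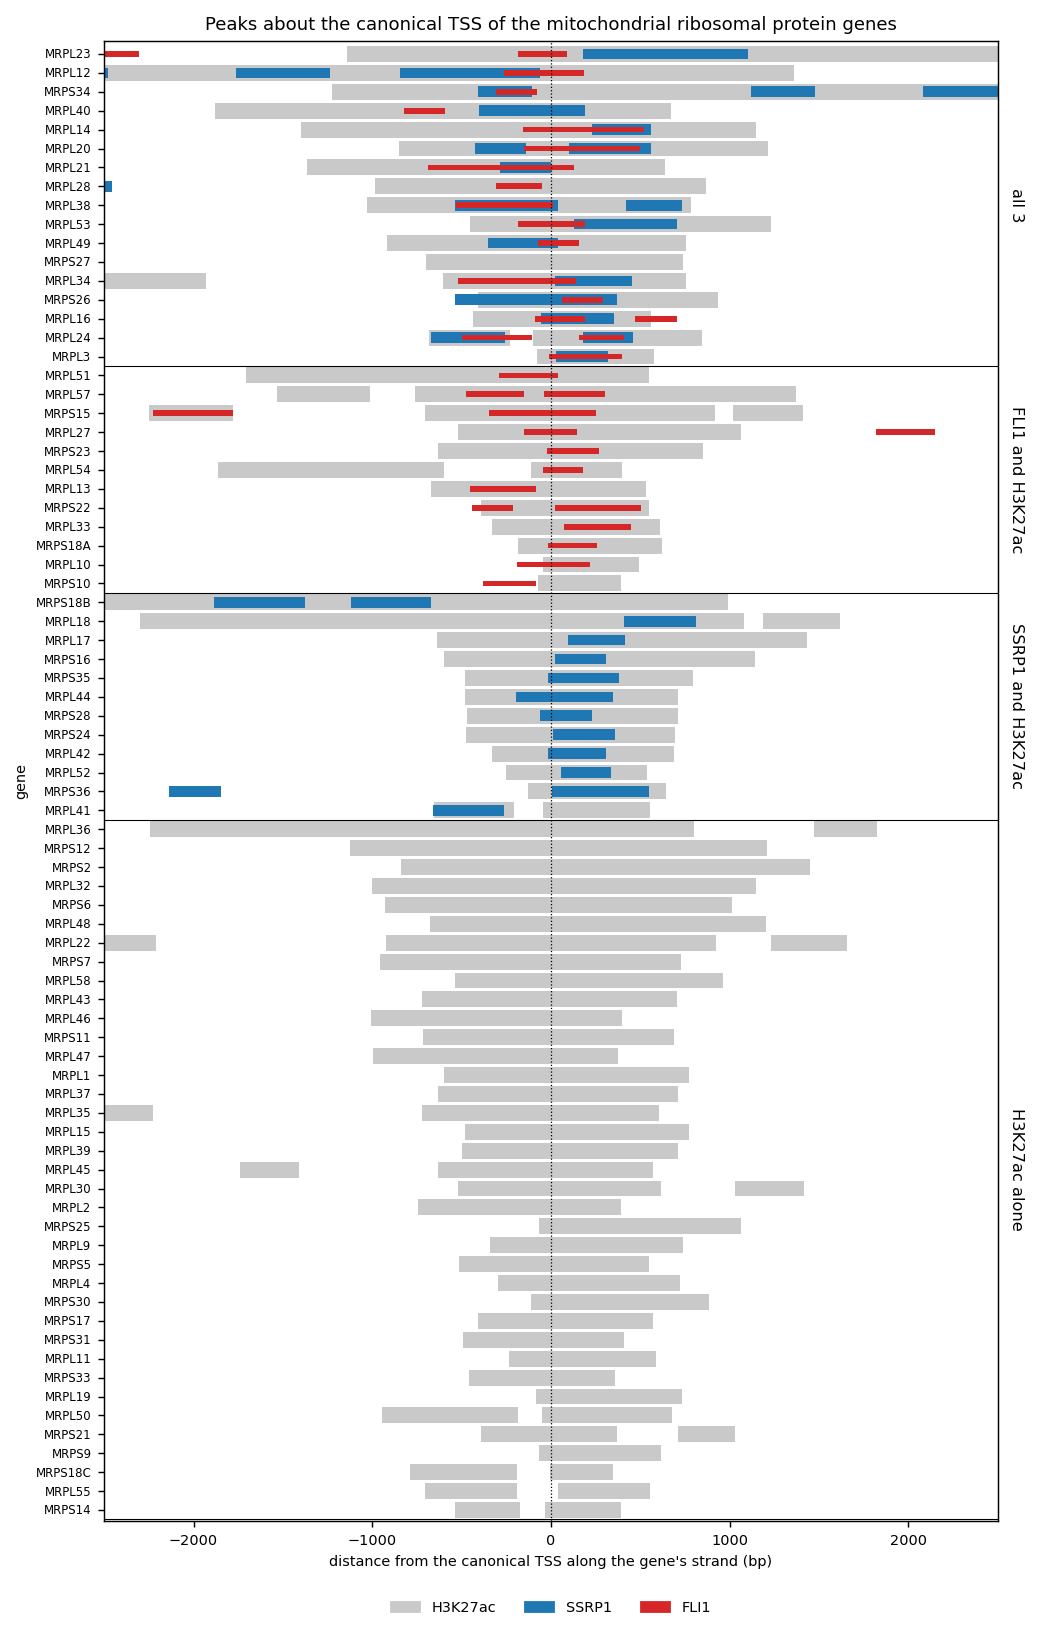
Peaks within 2.5 kb of the canonical TSS of each of the 78 members, by distance along the gene's strand in bp; grey bars are H3K27ac peaks, blue SSRP1 and red FLI1, with genes grouped by class and each library a single sample. All 78 rows hold a grey bar near the start, and the 37 genes of the lowest block hold no other colour; MRPS27 shows no red or blue bar because its FLI1 and SSRP1 peaks lie at an alternative start outside the plotted range.

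By subunit, the shares differed within wide intervals. Of 51 large-subunit genes, 22 carried FLI1 (43.1%, 29.3 to 57.8, beside the 42.1% of acetylated genes), 20 carried SSRP1 (39.2%, 25.8 to 53.9) and 14 carried all 3 marks (27.5%, 15.9 to 41.7). Of 26 small-subunit genes, 7 carried FLI1 (26.9%, 11.6 to 47.8), 8 carried SSRP1 (30.8%, 14.3 to 51.8) and 3 carried all 3 marks (11.5%, 2.45 to 30.2). The intervals of the subunits overlapped for each mark. Among acetylated genes, SSRP1 lay at 54.7%, above the intervals of both subunits. All 3 marks lay at 30.0% of acetylated genes and FLI1 at 42.1%, inside both subunits' intervals. MRPS18A and MRPS30 were counted with the large subunit, where their proteins sit, and MRPS36, now known as a component of the 2-oxoglutarate dehydrogenase complex, with neither. By descent, FLI1 lay at 17 of 48 genes with a bacterial homologue (35.4%, 22.2 to 50.5) and at 12 of 29 mitochondria-specific genes (41.4%, 23.5 to 61.1). SSRP1 lay at 16 (33.3%, 20.4 to 48.4) and 12 (41.4%, 23.5 to 61.1), again with overlapping intervals. The 54.7% of acetylated genes lay above the interval of genes with a bacterial homologue and inside that of mitochondria-specific genes. For FLI1 the 42.1% of acetylated genes lay inside both intervals. The MRPS18 paralogues, 3 genes for alternative relatives of a single bacterial protein, were each in a different class: MRPS18A had FLI1, MRPS18B had SSRP1 and MRPS18C had H3K27ac alone.

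Among the members with all 3 marks, the widest FLI1 peak lay at MRPL21, which encodes the homologue of bacterial L21. It was 817 bp wide, covered the TSS, and overlapped an SSRP1 peak of 282 bp and a H3K27ac peak of 2002 bp. At MRPL14, whose protein lies at the interface of the subunits, FLI1 covered the TSS over 675 bp (chr6:44094672-44095346), and SSRP1 (327 bp) began 232 bp inside the gene. MRPL34, encoding the homologue of the small bacterial protein L34, had a FLI1 peak of 660 bp over the TSS (chr19:17416163-17416822) and SSRP1 of 434 bp starting 22 bp downstream. In these 3 genes FLI1 lay over the start itself, and SSRP1 lay beside the start by 3 to 232 bp. MRPL20, the homologue of an early-assembling bacterial protein, carried FLI1 over 652 bp (chr1:1342175-1342826), which met SSRP1 peaks of 461 bp in the gene and 285 bp upstream. MRPL38, a mitochondria-specific protein of the central protuberance, carried FLI1 over 544 bp (chr17:73900954-73901497) within an SSRP1 peak of 580 bp. A further SSRP1 peak of 314 bp lay 417 bp downstream.

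MRPL12 encodes the flexible stalk protein that recruits translation factors. Its FLI1 peak of 449 bp (chr17:79670132-79670580) covered the TSS, its SSRP1 peaks of 788, 525 and 320 bp all lay upstream, and 1 H3K27ac peak of 4222 bp spanned them. MRPL3, the homologue of L3 near the peptidyl transferase centre, had compact peaks of 411 bp for FLI1, 291 bp for SSRP1 and 651 bp for H3K27ac (FLI1 at chr3:131221417-131221827). MRPL24 held a pair of FLI1 peaks (389 and 253 bp) that flanked the canonical TSS at 109 and 158 bp. Each had its own SSRP1 peak (414 and 282 bp) and its own H3K27ac peak (451 and 945 bp). MRPL53, a mitochondria-specific gene with one of the sequences above, had FLI1 over the TSS (377 bp) and SSRP1 (572 bp) from 131 bp inside the gene. MRPS27 encodes a pentatricopeptide repeat protein of the small subunit. Its FLI1 peak (502 bp, chr5:71603961-71604462) and SSRP1 peak (306 bp) lay at an intronic alternative TSS, 11605 bp from the canonical one for FLI1, while the canonical start had a H3K27ac peak of 1439 bp alone.

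The remaining genes with all 3 marks had FLI1 peaks of 227 to 351 bp. MRPS34 had the narrowest FLI1 peak of the class (227 bp) and, in its window, the widest SSRP1 peak of all members (1544 bp). That SSRP1 peak lay 2081 bp downstream of the TSS, past the end of the gene. Like the other SSRP1 peaks there, it also met a window of EME2 or NME3. A smaller SSRP1 peak of 299 bp at MRPS34 overlapped the FLI1 peak. MRPL23, the homologue of L23 at the exit of the nascent chain, had the widest H3K27ac peak of the group (5694 bp, chr11:1967419-1973112) and an SSRP1 peak of 924 bp. FLI1 and SSRP1 peaks overlapped directly at 14 of the 17 genes (82.4%, 56.6 to 96.2), against 78.2% of all genes that carried both. The exceptions were MRPL23, MRPL40 and MRPL28, where gaps of 89, 186 and 2147 bp separated them.

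SSRP1 without FLI1 was widest at MRPS36 (542 bp, chr5:68513595-68514136) and at MRPL44 (541 bp, chr2:224821985-224822525), whose protein carries an RNase III-like fold. In both genes SSRP1 covered a TSS within a H3K27ac peak, of 774 bp at MRPS36 and 1189 bp at MRPL44. At MRPS18B, SSRP1 peaks of 506 and 446 bp lay 1379 and 672 bp upstream, inside a H3K27ac peak of 4130 bp. At MRPL18, the homologue of the 5S rRNA-binding protein L18, SSRP1 (406 bp) lay 407 bp inside the gene under a H3K27ac peak of 3378 bp. These last 2 genes share their acetylated region with the divergent genes PPP1R10 and TCP1. MRPL41 and MRPS35, both encoding mitochondria-specific proteins, tied for the next place at 394 bp. The peak lay 264 bp upstream of the TSS in MRPL41 and over the TSS in MRPS35.

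FLI1 without SSRP1 was widest at MRPS15, the homologue of the rRNA-binding protein S15. A FLI1 peak of 600 bp covered its TSS (chr1:36929732-36930331), and another of 447 bp lay 1781 bp upstream under its own H3K27ac peak. MRPS22, a mitochondria-specific small-subunit gene, had FLI1 peaks of 481 and 227 bp on the 2 sides of its canonical TSS (chr3:139062883-139063363 for the wider). MRPL10, which anchors the stalk, had a FLI1 peak of 411 bp over the TSS (chr17:45908689-45909099) and 1 of the narrowest H3K27ac peaks of the group, at 538 bp. MRPL33 had FLI1 over 373 bp, 74 bp inside the gene, and MRPL13 over 365 bp, 86 bp upstream. At all 5 genes the FLI1 peak nearest the start overlapped H3K27ac.

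Peaks of FLI1 covered a TSS of members more often than those of SSRP1, with overlapping intervals. Among members with the mark, FLI1 covered a TSS in 20 of 29 (69.0%, 49.2 to 84.7). The share of acetylated genes with FLI1 was 48.2%, just below the interval. SSRP1 covered a TSS in 11 of 29 (37.9%, 20.7 to 57.7), against 54.6%, inside the interval. H3K27ac covered a TSS in 78 of 78, against 88.8%. Where FLI1 did not cover the TSS, at 9 members, the nearest peak was a median of 66 bp away and at most 592 bp (MRPL40), whereas over all acetylated genes the median was 320 bp. For SSRP1 the corresponding median was 96 bp over 18 members, with a maximum of 1705 bp (MRPL28), against 158 bp.

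Along the 2.5 kb on each side of the canonical TSS, read in bins of 100 bp, coverage by FLI1 was highest at +50 bp, where 23.1% of members and 15.8% of acetylated genes had a peak. SSRP1 coverage was highest at +250 bp in both, at 21.8% of members and 31.3% of acetylated genes. Over the first 1 kb, mean SSRP1 coverage of members was 10.3% downstream and 6.28% upstream, a ratio of 1.63 against 1.58 for acetylated genes. SSRP1 thus leaned downstream of the start to a similar degree in the members and in acetylated genes, at lower coverage in the members. The ratio for FLI1 was 0.903 in members and 0.896 in acetylated genes, with neither side favoured by much.

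**Figure D2:**
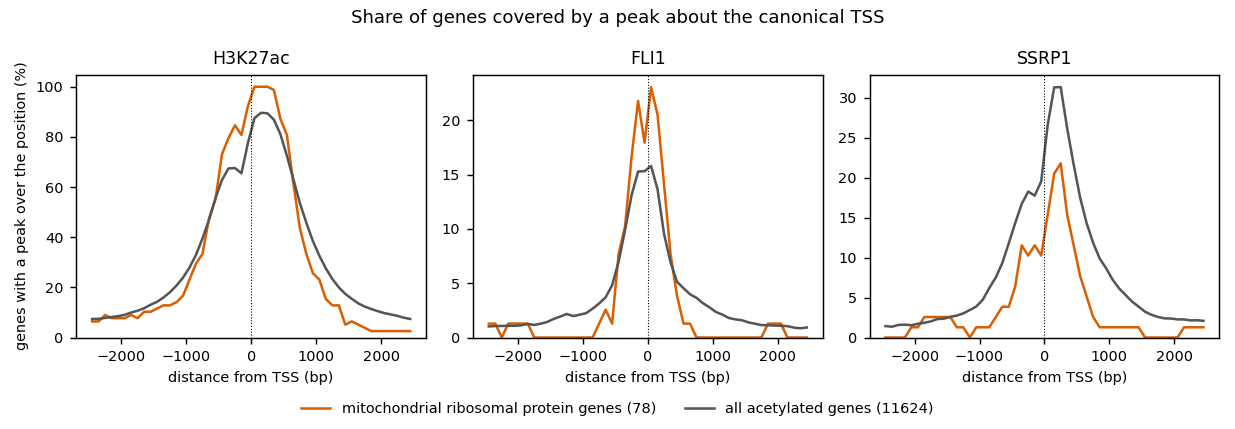
Share of genes (%) with a peak over each 100 bp bin by distance from the canonical TSS in bp, for H3K27ac, FLI1 and SSRP1, in the 78 members (orange) and all 11624 acetylated genes (grey); vertical scales differ between panels. The orange line is above the grey one at the start for H3K27ac and FLI1, peaking at 100% and 23.1%, and below it for SSRP1, peaking at 21.8% against 31.3%.

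The edge of the 2.5 kb window decided few calls at members, but the FLI1 share of acetylated genes moved with it. With windows of 1 kb, FLI1 lay at 37.2% of members and 37.9% of acetylated genes. With 5 kb the shares were 39.7% and 47.1%. For SSRP1 they were 35.9% and 53.1% at 1 kb, and 41.0% and 56.9% at 5 kb. The members nearest outside it were MRPS35 (4319 bp) and MRPL15 (4402 bp) for FLI1, and MRPL57 (2673 bp) and MRPL35 (3896 bp) for SSRP1. The 49 members without FLI1 had their nearest FLI1 peak a median of 25488 bp away, and 38 of them had none within 10 kb. The 49 without SSRP1 had the nearest a median of 37981 bp away, and 42 had none within 10 kb.

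The acetylated regions were of ordinary width. The widest H3K27ac peak at each member had a median of 1301.5 bp (quartiles 954 and 1837), against 1379 bp (898 and 2020) over acetylated genes, and ran from 422 bp at MRPS14 to 5694 bp at MRPL23. Members with H3K27ac alone ran from MRPS14 to 3046 bp at MRPL36. The widest FLI1 peak per gene with the mark was also alike, with a median of 365 bp in members and 368 bp in acetylated genes. The widest SSRP1 peak per gene was narrower in members, at a median of 405 bp (317 and 542) against 532.5 bp (376 and 784).

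Both factors were found more often at genes with wider acetylation, in the members and in acetylated genes. Acetylated genes were split into 3 classes of nearly equal number by the width of their widest H3K27ac peak, at 1064 and 1758 bp. This placed 26, 31 and 21 members in the narrow, middle and wide classes. SSRP1 lay at 7 members of the narrow class (26.9%, 11.6 to 47.8), 10 of the middle (32.3%, 16.7 to 51.4) and 12 of the wide (57.1%, 34.0 to 78.2). The corresponding shares of acetylated genes were 36.2%, 53.0% and 74.9%, so the members were lower in each class, with the middle share of acetylated genes alone outside the members' interval. FLI1 lay at 8 (30.8%), 10 (32.3%) and 11 (52.4%) members, against 28.9%, 41.2% and 56.3%. Both factors together lay at 3 (11.5%), 5 (16.1%) and 9 (42.9%) members, against 15.1%, 27.7% and 47.1%.

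**Figure D3:**
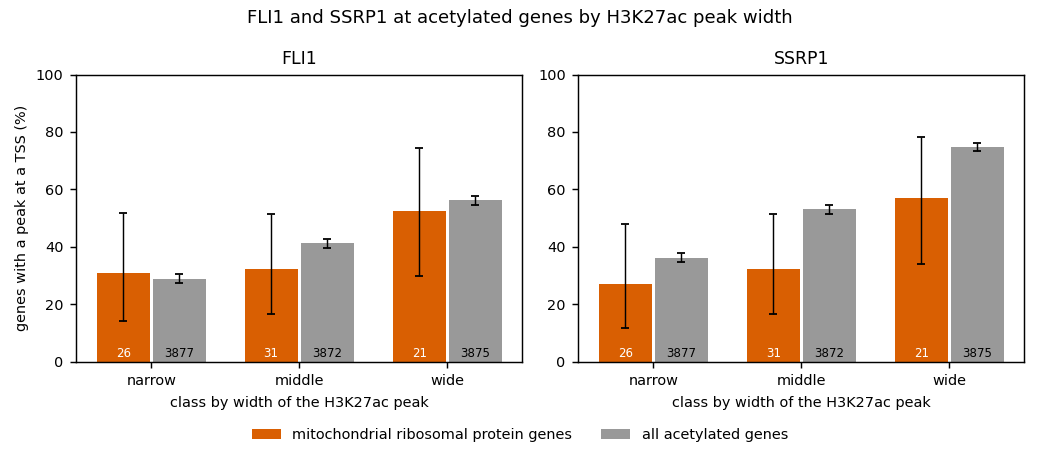
Share of genes (%) with FLI1 (left) or SSRP1 (right) at a TSS, by class of H3K27ac peak width, in members (orange) and all acetylated genes (grey); error bars are 95% Clopper-Pearson intervals and the number of genes stands in each bar. For SSRP1 the orange bars, 26.9%, 32.3% and 57.1%, stand below the grey ones in all 3 classes.

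An ETS core was common in the members' promoters. In the 300 bases from 250 before to 50 after the canonical TSS, it was found in 37 of 78 members (47.4%, 36 to 59.1), against 18.0% of all promoters and 26.4% of acetylated ones. It lay within 30 bases of the TSS in 27 members (34.6%), against 12.6% of acetylated genes. The promoters of the members were lower in G and C, with a median of 59.7% against 66.3%. The letters of a YY1 site, AAGATGGCG on either strand, were found in 13 members (16.7%, 9.18 to 26.8), against 4.64%, and stand in lower case in the MRPL52 sequence above. The 10 letters of the palindromic NRF1 site were found in MRPL17 alone (1.28%), against 2.60%. A run of 4 consecutive GGAA on either strand, the kind of sequence that EWS-FLI1 also binds, was found in 0 of 78, against 3 of 11624 acetylated promoters. These motifs can share bases at their ends, and each was counted on its own.

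FLI1 was more frequent at members with the core than at members without it. FLI1 lay at 21 of 37 members with the core (56.8%, 39.5 to 72.9) and at 8 of 41 without it (19.5%, 8.82 to 34.9). These intervals do not overlap, and both are given as descriptions. Over acetylated genes the contrast was smaller, 48.4% with the core and 39.9% without. By position, 18 of 27 members with the core within 30 bases of the TSS carried FLI1 (66.7%, 46.0 to 83.5), against 49.5%. With the core farther away, 3 of 10 carried it (30.0%, 6.67 to 65.2), against 47.4%. A FLI1 peak anywhere in the TSS windows counted here, whether or not it held the core. At MRPL28, MRPL33, MRPS10, MRPS18A, MRPS26 and MRPS34, the promoter had a core but no FLI1 peak held one. SSRP1 lay at 16 of 37 members with the core (43.2%, 27.1 to 60.5) and at 13 of 41 without (31.7%, 18.1 to 48.1), whereas over acetylated genes it was the less frequent with the core, at 45.2% and 58.1%. Of the 36 distinct FLI1 peaks at members, 17 held the core within the peak itself (47.2%, 30.4 to 64.5), against 27.7% of 5587 FLI1 peaks at acetylated genes, and 0 held the GGAA run, against 53 (0.949%).

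Besides MRPL52 and MRPS12, the core lay within 30 bases of a TSS and no FLI1 peak was listed at MRPL18, MRPL39, MRPL43, MRPL47, MRPL58, MRPS16, MRPS21, MRPS31 and MRPS33. In MRPL43 and MRPS33 it lay 3 bp from the TSS, as near as in MRPL16 and MRPL53, which had a peak. MRPL43 and MRPS16 are the members on chromosome 10, where 8.37% of acetylated genes carried FLI1 and 23.9% SSRP1; the part of the chromosome in these missing calls was not tested. On chromosome 8, where 66.4% of acetylated genes carried FLI1 and 76.2% SSRP1, each mark lay at 1 of 3 members.

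**Figure D4:**
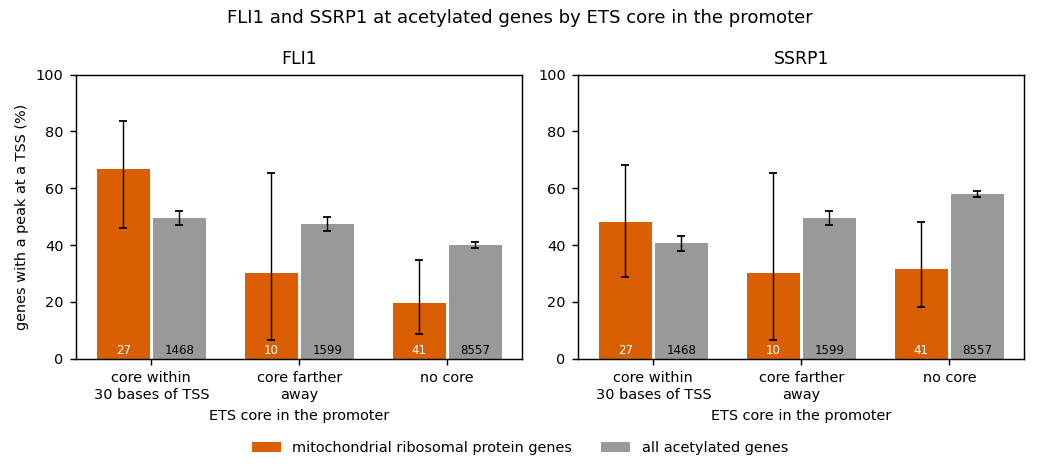
Share of genes (%) with FLI1 (left) or SSRP1 (right) at a TSS, by whether the 300-base promoter held an ETS core within 30 bases of the TSS, farther away or not at all, in members (orange) and acetylated genes (grey); error bars are 95% Clopper-Pearson intervals and gene numbers stand in the bars. For FLI1 the orange bars fall from 66.7% through 30.0% to 19.5%, and the grey ones from 49.5% through 47.4% to 39.9%. A peak anywhere within 2.5 kb of a TSS counts, whether or not it holds the core.

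Many members face another gene. A protein-coding TSS on the opposite strand lay within 1 kb upstream of the canonical TSS in 26 of 78 members (33.3%, 23.1 to 44.9), against 15.3% of acetylated genes, and within 300 bp in 18 (23.1%) against 9.67%. The distances ran from 45 bp, between MRPL27 and EME1, to 990 bp, between MRPL54 and APBA3, with a median of 192 bp. Several partners act in mitochondria or in translation: MRPL47 faced NDUFB5 of respiratory complex I at 156 bp, MRPL43 faced the mitochondrial DNA helicase gene TWNK at 46 bp, and MRPS12 faced SARS2, the mitochondrial seryl-tRNA synthetase gene, at 181 bp. MRPL49 faced FAU, which encodes a cytoplasmic ribosomal protein, at 187 bp, and all 3 marks at that promoter belonged to both windows. MRPL46 and MRPS11, a large- and a small-subunit gene, faced each other at 320 bp. They shared 1 H3K27ac peak of 1408 bp (chr15:89010221-89011628) and had neither factor.

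A peak at such a promoter cannot be assigned to either gene. Windows of 2.5 kb can also meet those of genes that are not divergent neighbours, and the next counts take any other gene. For 14 of the 29 members with FLI1 (48.3%), every FLI1 peak also met the window of another gene, against 26.5% of acetylated genes with FLI1. Among them, MRPL12, MRPL34, MRPS26 and MRPS34 had no divergent neighbour within 1 kb. The same held for 11 of 29 with SSRP1 (37.9%), against 24.7%. FLI1 lay at 11 of 26 members with a divergent neighbour (42.3%, 23.4 to 63.1) and at 18 of 52 without (34.6%, 22 to 49.1), against 41.6% and 42.2% of acetylated genes. SSRP1 lay at 7 of 26 with a neighbour (26.9%, 11.6 to 47.8) and at 22 of 52 without (42.3%, 28.7 to 56.8), against 45.8% and 56.3%. In members and acetylated genes alike, SSRP1 was the less frequent at divergent promoters, and the members' intervals overlapped.

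Peaks over the rest of the gene were found at fewer members than acetylated genes. Members are short, with a median of 11940.5 bp against 32803.5 bp for acetylated genes, and 69 of them extend beyond their TSS windows. Of these 69, FLI1 lay over the remaining gene in 20 (29.0%, against 38.8%), SSRP1 in 7 (10.1%, against 25.1%) and H3K27ac in 10 (14.5%, against 31.2%). Per base, FLI1 peaks covered 0.579% of these stretches, against 0.483% of acetylated genes. This value also leaned on single genes, falling to 0.514% without MRPS22 and to 0.512% without MRPL23. Leaving out both together was not tried. SSRP1 covered 0.370%, against 0.377%, and H3K27ac 1.21%, against 1.32%, and both values rested on MRPL23. Without MRPL23 they were 0.228% and 0.695%. Without MRPS22 instead, they were 0.452% and 1.48%, above those of acetylated genes. MRPS22, whose gene model spans 354692 bp through far upstream transcripts, held 9 of the FLI1 peaks. MRPL23 held 5 SSRP1, 2 FLI1 and 3 H3K27ac peaks, the widest a H3K27ac peak of 5852 bp (chr11:1984120-1989971) that met both factors. It lies beyond the end of the canonical transcript, inside the longer gene model.

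Other genes of mitochondrial translation, listed from general knowledge, had shares of FLI1 and SSRP1 near those of the members. All 43 were acetylated, 18 carried FLI1 (41.9%, 27 to 57.9), 15 carried SSRP1 (34.9%, 21.0 to 50.9) and 8 carried both (18.6%). Among all acetylated genes the shares were 42.1%, 54.7% and 30.0%. FLI1 was thus level with acetylated genes, whereas their SSRP1 share lay above the interval of the 43 genes. Of 5 mitochondrial ribosomal proteins under other symbols, DAP3, a GTP-binding small-subunit protein, and AURKAIP1 had all 3 marks, PTCD3 had FLI1, GADD45GIP1 had SSRP1 (1699 bp) and CHCHD1 had H3K27ac alone. Of 16 translation factors, 7 had FLI1 and 4 had SSRP1, and the elongation factor gene TUFM, the release factor gene MTRF1L and the ribosome rescue gene MTRES1 had both. Of 22 assembly factors, 8 had FLI1 (36.4%) and 8 had SSRP1 (36.4%). Both lay at the rRNA methyltransferase gene NSUN4, the endoribonuclease gene YBEY and the GTPase gene GTPBP10.

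The most similar groups were set beside the members. Marks and peak widths were compared within acetylated genes, and motifs and divergent neighbours over all genes of each group. SSRP1 lay at 42 of 83 cytoplasmic ribosomal protein genes (50.6%, 39.4 to 61.8), 29 of 79 nuclear oxidative phosphorylation genes (36.7%, 26.1 to 48.3) and 9 of 33 aminoacyl-tRNA synthetase genes (27.3%, 13.3 to 45.5). The members' 37.2% was lower than that of the cytoplasmic ribosome, with overlapping intervals, and next to that of oxidative phosphorylation. The median width of the widest H3K27ac peak per gene was 2148 bp for cytoplasmic ribosomal protein genes. It was 1437 bp for oxidative phosphorylation and 1720 bp for synthetases, all wider than the members' 1301.5 bp. FLI1 lay at 31.3%, 32.9% and 42.4% of the 3 groups, around the 37.2% of the members. An ETS core was in the promoter of 44 of 85 cytoplasmic ribosomal protein genes (51.8%), 31 of 87 oxidative phosphorylation genes (35.6%) and 19 of 34 synthetase genes (55.9%), so the members' 47.4% lay within the range of these groups. The YY1 letters were in 10.6%, 11.5% and 11.8% of the same groups. These shares lay inside the members' interval (16.7%, 9.18 to 26.8). A divergent neighbour within 1 kb was found for 14 of 85 (16.5%), 25 of 87 (28.7%) and 8 of 34 (23.5%), beside the 33.3% of the members. Within 300 bp the shares were 10.6%, 23% and 17.6%, beside the members' 23.1%, so members and oxidative phosphorylation genes were level at that distance.

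As a check of the label, 8 of 8 Ewing sarcoma genes, among them NR0B1 and NKX2-2, carried H3K27ac and SSRP1, and 7 carried FLI1. Of 8 markers of other cell types, 0 carried H3K27ac or SSRP1.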

How the data were processed

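ChIP-seq libraries of FLI1, SSRP1, H3K27ac and input, 1 each, came from SK-N-MC. Chromatin was cut with micrococcal nuclease and sonicated, reads were aligned to hg19 with Bowtie2, and the authors called peaks per library against input with MACS2 at a q-value threshold of 0.05, per the series' design text. MACS2 was version 2.2.7.1, per the submitters' processing notes. How duplicate and multiply mapped reads were treated is not stated in the sources used here. The deposited peak lists hold positions and names only. Lines that repeat an interval for a further summit were merged, which left 36539 FLI1, 19955 SSRP1 and 37271 H3K27ac peaks, of which 36305, 19855 and 37195 lay on chromosomes 1 to 22 and X, with median widths of 283, 403 and 653 bp.

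Genes were the protein-coding symbols of GENCODE release 44 mapped to GRCh37. A mark was assigned to a gene if at least 1 bp of a peak fell within 2.5 kb of any TSS of its basic transcripts. Motifs, divergent neighbours and profiles used 1 canonical TSS. Members named in full were the 10 with all 3 marks and the widest FLI1 peaks, and the 5 with the widest peaks in each class with 1 factor, a tie included. Other genes are named by class, or were chosen after their values were seen. Members and lists were chosen with earlier results of these data known. Some single sequences and marker values are not reported here. Functions were tested on simulated data. Python 3.11.15, numpy 2.4.6, scipy 1.17.1, pysam 0.24.0 and samtools 1.23.1 were used. Alternatives were windows of 1 and 5 kb, canonical TSSs, peak midpoints, wider peaks only, chromosomes or members left out, and other divergent distances and promoter lengths.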

Additional observations from a re-analysis of the deposited data

How the results depend on the processing

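Among the shares of marked genes, only the restriction to peaks at or above the median width of their list moved values beyond their intervals. It left H3K27ac at 91.0% of members (50.1% of all genes) and SSRP1 at 19.2% (24.4%). Among the 71 members then acetylated, FLI1 lay at 25.4% (32.8% of acetylated genes), SSRP1 at 21.1% (41.7%) and both at 9.86% (19.8%). Without MRPL23, a choice made after seeing the data, SSRP1 peaks covered 0.228% and H3K27ac peaks 0.695% of the members' gene bodies outside the TSS windows. The other 59 values of the members stayed close to those reported. The FLI1 share of acetylated genes moved with the window, from 37.9% at 1 kb to 47.1% at 5 kb. The gap of SSRP1 to acetylated genes fell within the interval among members with no divergent neighbour (42.3%, against 56.3%). Leaving out the stretches of chromosomes 3, 10, 16, 17 and X with few FLI1 and SSRP1 peaks, a choice made after seeing the data, gave FLI1 at 38.7% of 75 members (47.0% of acetylated genes) and SSRP1 at 37.3% (59.6%). No paired analysis was possible because each target had 1 library. Peak lists without heights or read counts limit every statement to presence of a called peak, and a missing peak is not shown to be missing binding.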
